A study of Homo sapiens with 3 samples.

Results

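The 10 genes described here are the GADD45 genes GADD45A, GADD45B and GADD45G and the kinase genes of the JNK cascade MAP3K4, MAP3K5, MAP2K4, MAP2K7, MAPK8, MAPK9 and MAPK10. They were chosen by name, with earlier results of these data known. The values are those of all probes whose RefSeq accession belongs to 1 of these genes, which gave 18 probes of the 58201 on the array and 10 genes of the 22439 that could be named. Each probe was printed in 1 spot and is given on its own. GADD45A, GADD45B and MAP2K7 had 1 probe, MAPK8 had 3 and each of the other 6 genes had 2.

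The arrays measured the total RNA of TK-10, a line derived from a human renal cell carcinoma, after 48 h of treatment. Each condition had 1 single-colour array. The vehicle cells received 0.1% DMSO. The cordyceps cells received cordyceps, a medicinal fungus, at 750 μg/mL. The sunitinib cells received sunitinib, an inhibitor of receptor tyrosine kinases used against renal cancer, at 10 μM. The labels give DMSO for the vehicle cells only and name no solvent for the treated cells. By the labels, the medium of all 3 groups held nicotinamide at 10 mM, troglitazone, a PPARγ agonist, at 10 μM and zinc sulfate at 16.7 μM, so the vehicle cells carried these agents too. It also held fetal bovine serum at 10% and penicillin-streptomycin at 1%. The title given to the deposited series places GADD45B, MKK7 and JNK at the centre of its question on cordyceps, and the arrays give the RNA side of that question. Its methods name cordycepin, an adenosine analogue, at another dose, and the labels are followed here. No array was repeated, so no test between conditions, no p-value and no SD can be given, and precision is limited by the number of arrays. Both comparisons share the vehicle array.

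GADD45 proteins are small, acidic proteins without enzyme activity, made in response to DNA damage, stress and cytokines. They bind MAP3K4, also called MTK1, and start the kinase chain in which a MAP3K activates MAP2K4 or MAP2K7, which activate the JNK kinases, which in turn phosphorylate JUN. GADD45B also binds MAP2K7, also called MKK7, and blocks it, and the GADD45B gene is a known target of NF-κB. Kinases of this chain are switched by phosphorylation, which an RNA array does not measure.

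GADD45B and GADD45G were picked here after their contrasting ratios were seen. The 250 bases upstream of their starts are shown, and the bearing of these bases on the ratios was not tested. They were taken from the RefSeq promoter table of build GRCh38.p14, which had entries for 9 of the 10 genes, all but GADD45A. The GADD45B window is chr19:2475877-2476126 and the GADD45G window is chr9:89604762-89605011, both on the + strand. Capitals mark matches to CCAAT and TATAAA.

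GADD45B: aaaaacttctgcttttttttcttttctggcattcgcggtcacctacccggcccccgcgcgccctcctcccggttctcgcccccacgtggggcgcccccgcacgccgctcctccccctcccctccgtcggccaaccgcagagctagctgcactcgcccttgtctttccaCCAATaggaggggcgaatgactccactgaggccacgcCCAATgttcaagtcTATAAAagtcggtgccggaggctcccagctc

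GADD45G: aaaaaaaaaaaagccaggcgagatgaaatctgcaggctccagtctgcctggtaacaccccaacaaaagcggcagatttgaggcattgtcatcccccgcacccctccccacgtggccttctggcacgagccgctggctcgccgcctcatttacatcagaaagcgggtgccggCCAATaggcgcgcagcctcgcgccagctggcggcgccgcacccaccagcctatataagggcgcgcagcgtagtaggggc

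The GADD45B window held CCAAT at 82 and 45 bases before the start and TATAAA at 31 bases before it. The GADD45G window held CCAAT at 79 bases before the start and no TATAAA. Variants of TATAAA were not searched for. The GC content was 63.2% for GADD45B and 61.6% for GADD45G. Over 35116 windows of the same length, searched on both strands, 32.0% held CCAAT and 10.7% held TATAAA. The AP-1 motif TGACTCA, the CRE motif TGACGTCA and the kappaB consensus had no match in either window, and 4.20%, 1.65% and 5.21% of all windows held them. A match or its absence says only whether these letters lie in this window.

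The processed signal is the fluorescence of a spot after background subtraction, in arbitrary units, and is called the signal here. A level is log2 of the signal less log2 of the array's 75th percentile, and a log2 ratio is the difference of 2 levels of the same probe. The 75th percentile was 165 on the vehicle array, 138 on the cordyceps array and 78.3 on the sunitinib array. An equal signal on the sunitinib array therefore gives a level 1.07 log2 units higher than on the vehicle array, and 0.26 higher on the cordyceps array. The scanner software found 45.5% of probes on the vehicle array well above background, 37.8% on the cordyceps array and 38.3% on the sunitinib array. A probe was called higher or lower when it differed by more than 2-fold and at least 1 of its 2 signals was well above background. A dim signal that failed this criterion was replaced by the lowest signal that met it on that array, or kept if it was higher, and such a ratio is written as a bound. The error is the software's estimate for each spot, and its 95% limit covers the spots and not the spread between cultures. In a bulk sample, fewer cells that express a gene and less of its RNA per cell cannot be told apart.

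TK-10 cells had the RNA of a renal epithelial line. Of 11 renal markers, 10 met the criterion on every array, among them PAX8, a transcription factor of the kidney, and KRT18, an epithelial keratin, whereas CA9 did not. The summed signal of the renal markers, unscaled, was 368043 on the vehicle array, 263809 on the cordyceps array and 225374 on the sunitinib array. Most of it was KRT19 and VIM, at 175293 and 142519 on the vehicle array. The percentile used for scaling was 83.7% of the vehicle value on the cordyceps array and 47.5% on the sunitinib array. With scaling, the cordyceps sum would stay below the vehicle sum, and the sunitinib sum would lie above it. Of 7 markers of other cell types, 6 had a matched probe, of which 4 on the vehicle array, 3 on the cordyceps array and 3 on the sunitinib array met the same criterion. Their summed signal, also unscaled, was 6097, 1610 and 1247, most of it COL1A1 and ACTA2 of mesenchymal cells. The T cell marker CD3E and the endothelial marker PECAM1 were not well above background on any array. VWF, also endothelial, was well above it on the vehicle array at 96.8 and the cordyceps array at 73.4. The leukocyte marker PTPRC was so on the vehicle array at 18.4 and the sunitinib array at 45.7. The part of these differences in the results below was not tested. A bright streak of 581 spots on the cordyceps array held no spot of the 18 probes, and none of their spots was marked as an outlier. A window of 7 by 7 spots counted as streak when its median unscaled log2 signal lay over 1 above the brighter other array. Around MAPK10 probe 1 this shift was 0.69 on the cordyceps array, the highest at a spot of the 18 probes. Its part in the ratio of that probe was not tested.

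The criterion was met on all 3 arrays by 12 of the 18 probes, on 1 or 2 arrays by 4 and on none by 2. The last were probe 2 of GADD45G and probe 2 of MAPK10, which give no comparison. The brightest were those of GADD45A, GADD45B and MAP2K7, whose signals lay above those of 94.4% to 97.6% of all probes on the vehicle array. Local background at the spots was between 35 and 46 units, against signals of at most 132 for every probe of MAPK8, MAPK9 and MAPK10.

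**Figure D1:**
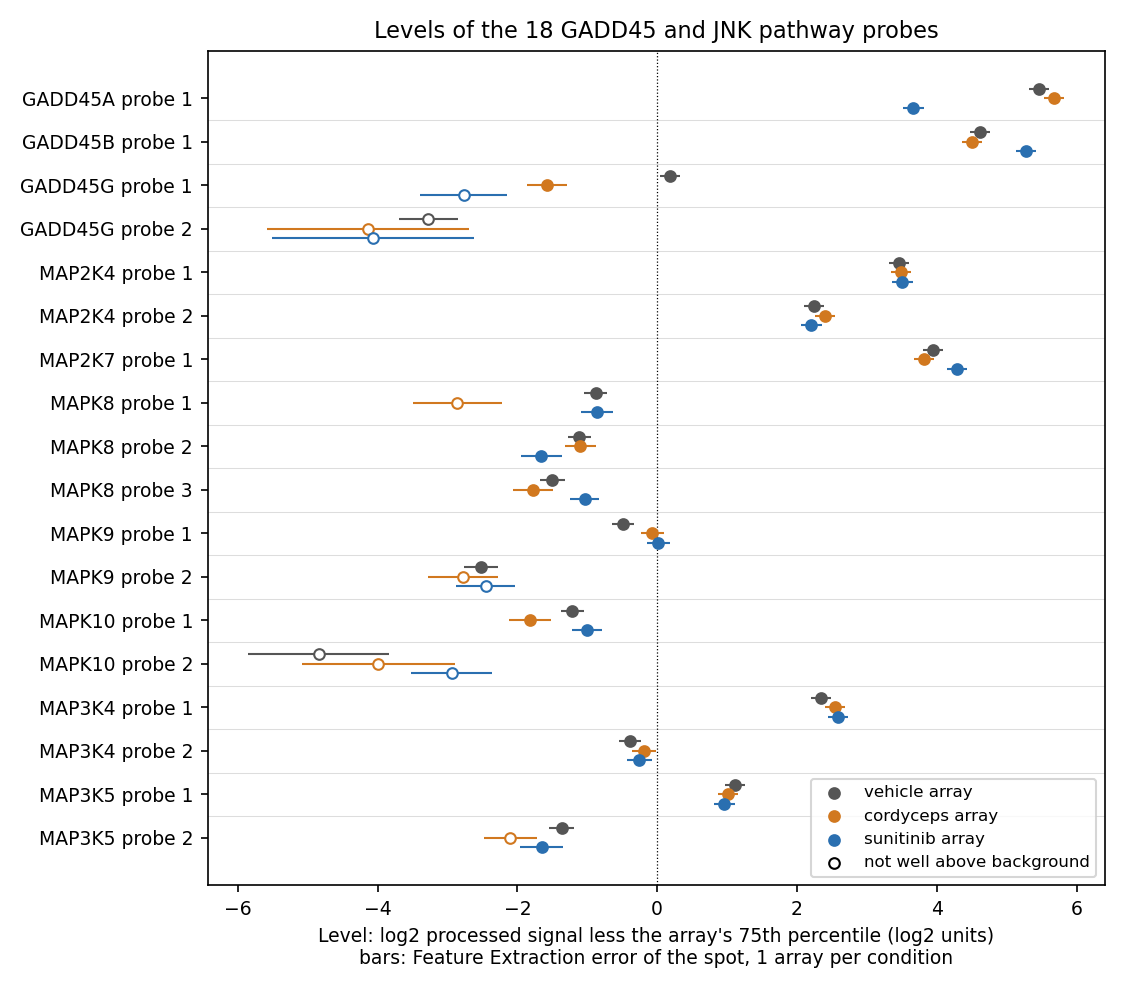
Level of each of the 18 probes on the vehicle, cordyceps and sunitinib arrays (x axis, log2 units relative to the array's 75th percentile; bars, the software's error of the spot; open circles, not well above background). GADD45A stands apart on the sunitinib array at 3.67 against 5.46 and 5.68, and GADD45G probe 1 lies lower on both treated arrays than on the vehicle array.

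For cordyceps, 16 of the 18 probes could be compared, 0 were called higher and 2 lower, GADD45G probe 1 and MAPK8 probe 1, beside 3.61% of all 26871 probes compared called higher and 2.49% lower. The median log2 ratio was −0.05 for the 16 probes and 0 for all. Here and in the gene lists below, a probe whose bound gave no ratio, such as MAPK9 probe 2, counts as compared with a value of 0. Over all probes measured on both arrays the median was 0.002. Of the 13 member probes measured on both arrays, 12 lay within the 95% limit. For sunitinib, 16 could be compared, 0 were called higher and 2 lower, GADD45A and GADD45G probe 1, beside 8.07% and 5.67% of 27138 probes. The median was 0.03 for the 16, 0 for all and 0.05 for all probes measured on both arrays. Of 14 member probes measured on both arrays, 11 lay within the limit, GADD45B and MAPK9 probe 1 above it and GADD45A below it. Most members thus lay near the middle of all probes, and 2 calls among 16 are too few to set against those shares.

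The GADD45 genes read unlike one another with sunitinib. GADD45A was 3.47-fold lower on the sunitinib array than on the vehicle array, GADD45B was 1.57-fold higher and GADD45G was at least 4.85-fold lower. On the cordyceps array GADD45A and GADD45B lay within the 95% limit of the vehicle array and GADD45G was 3.39-fold lower.

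GADD45A (chromosome 1, probe A_23_P23221 to NM_001924), a p53 target that binds PCNA and CDK1, had signals of 7252 on the vehicle array, 7051 on the cordyceps array and 994 on the sunitinib array. The vehicle and cordyceps values lay together and the sunitinib value far below both. The log2 ratio was −1.79 for sunitinib, with an error of 0.20 and a limit of 0.40, and 1.36% of the probes compared had a lower ratio. For cordyceps it was 0.22, within its limit of 0.40, and it was −0.04 with unscaled signals. Set directly against each other, the cordyceps array was 4.03-fold above the sunitinib array. The sunitinib ratio lay between −2.87 and −1.79 under every scaling and background correction tried.

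GADD45B (chromosome 19, probe A_24_P239606 to NM_015675), the family member that blocks MAP2K7, had signals of 4061, 3130 and 3036 on the vehicle, cordyceps and sunitinib arrays. The log2 ratio for cordyceps was −0.12, 1.09-fold lower and within the limit of 0.40, and it ranged from −0.38 with unscaled signals to 0.10 with median scaling. For sunitinib it was 0.65, past the limit of 0.40 but short of 2-fold, and −0.42 with unscaled signals. The direction of the sunitinib value therefore rests on the scaling. Its plain signal was lower on that array, but by less than the 75th percentile, which was 47.5% of that of the vehicle array. By rank, the probe lay above 96.1% of probes on the vehicle array, 95.6% on the cordyceps array and 97.2% on the sunitinib array.

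The difference between the GADD45A and GADD45B ratios within an array does not depend on a constant scaling factor. For sunitinib the GADD45A ratio less the GADD45B ratio was −2.45 log2 units, with a limit of 0.57, and it lay between −2.46 and −2.43 under every scaling and correction tried. For cordyceps the GADD45A ratio was 0.33 above, within the limit of 0.57. The 2 genes thus changed unequally on the sunitinib array, whichever scaling is used.

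GADD45G (chromosome 9), a member known as a growth suppressor silenced in many tumours, was dim. Probe 1 (A_33_P3252394 to NM_006705) had signals of 187 on the vehicle array, 46.2 on the cordyceps array and 11.5 on the sunitinib array, where it was not well above background. Both treated values lay below the vehicle value, and their own difference was within its 95% limit. The log2 ratio for cordyceps was −1.76, with an error of 0.33, and 0.387% of the probes compared had a lower ratio. For sunitinib the bound was −2.28. With normexp, a background model that compresses dim signals and adds 50 to each, the ratios were −0.98 and −0.89 and neither passed 2-fold. Probe 2 (A_24_P120934) had signals of 17.0, 7.86 and 4.68, none well above background, and so gives no second reading of this gene.

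**Figure D2:**
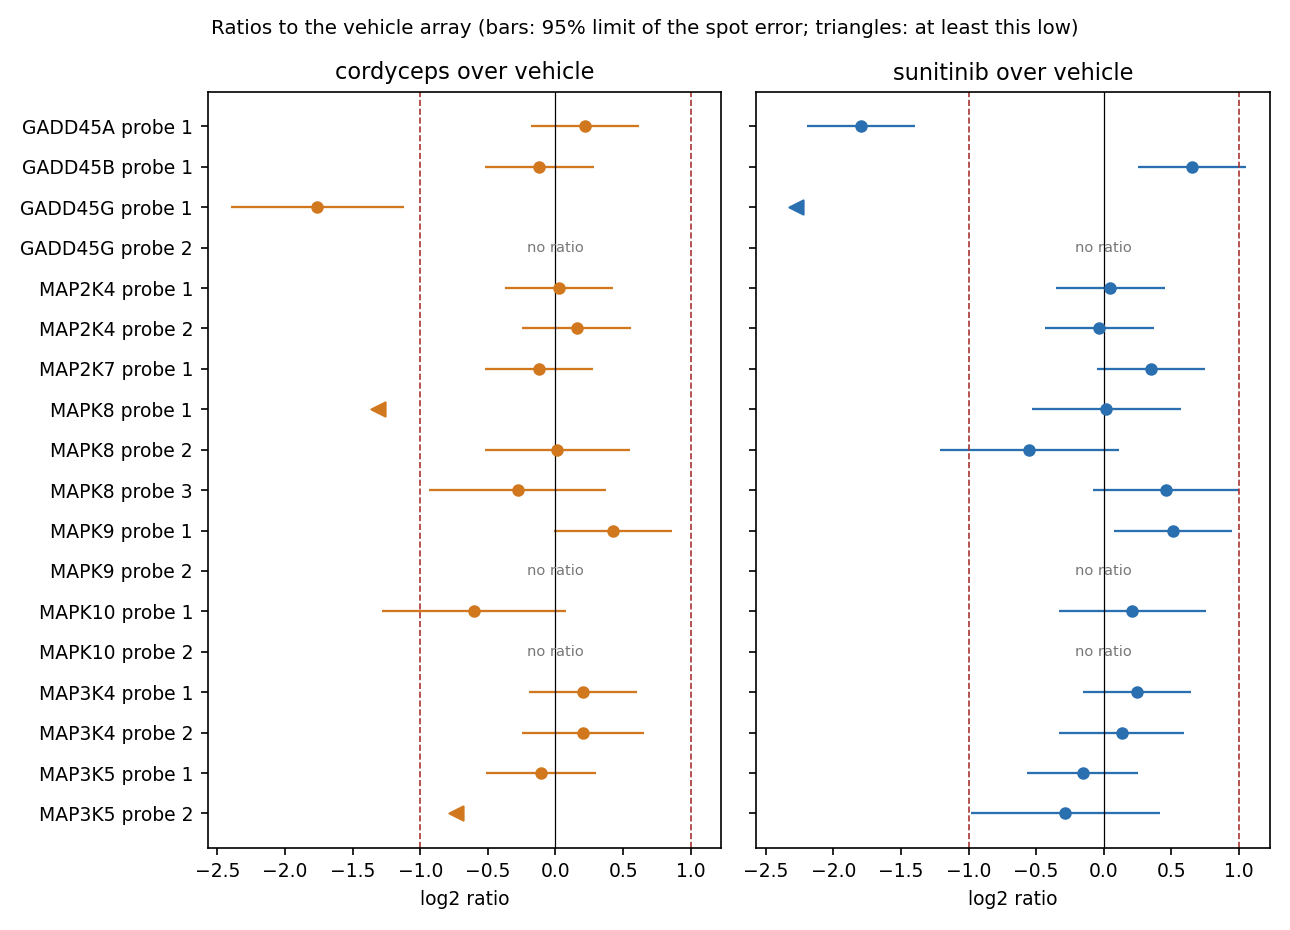
Log2 ratio of each probe to the vehicle array for cordyceps (left) and sunitinib (right), with the 95% limit of the spot error as bars, 2-fold as dashed lines and triangles where the ratio is a bound. Of the 18 probes, 2 passed 2-fold in each comparison, all lower, and GADD45G probe 1 is the one found in both.

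The ratios of the MAP3K genes lay within their 95% limits under both treatments, 1 of them, by a dim probe of MAP3K5 with cordyceps, being a bound. MAP3K4 (chromosome 6), the kinase that GADD45 proteins bind, had signals of 834, 804 and 470 by probe 1 (A_33_P3245922 to NM_006724) on the vehicle, cordyceps and sunitinib arrays. By probe 2 (A_23_P42096 to NM_005922) they were 126, 121 and 65.5. The log2 ratios were 0.20 by both probes for cordyceps, and 0.25 and 0.13 for sunitinib, all within their limits. The probes of MAP3K4 differed by less than their error, and each of these ratios turned negative with unscaled signals, those for sunitinib also with median scaling.

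MAP3K5 (chromosome 6), also called ASK1, a stress kinase held inactive by thioredoxin, had signals of 358, 278 and 152 by probe 1 (A_23_P134125 to NM_005923). The log2 ratios were −0.10 for cordyceps and −0.16 for sunitinib, within limits of 0.41. The cordyceps value turned to 0.11 with median scaling, and the sunitinib value stayed negative under every scaling tried. Probe 2 (A_33_P3377130) was dim, with signals of 64, 32.1 and 25, and not well above background on the cordyceps array. Its own signal was kept there, and the bound was a log2 ratio of −0.74, or 1.67-fold lower. That lay within its limit of 0.82 and was −0.07 with normexp. Its log2 ratio for sunitinib was −0.28, within its limit of 0.70, and 0.17 with normexp.

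MAP2K4 and MAP2K7, which activate JNK, were bright and differed little. MAP2K7 (chromosome 19, probe A_33_P3236651 to NM_001297555), the target of GADD45B, had signals of 2536, 1951 and 1532. The log2 ratio for cordyceps was −0.12, within the limit of 0.40, and 0.10 with median scaling. For sunitinib it was 0.35, also within the limit of 0.40, and it ranged from −0.73 with unscaled signals to 0.37 with quantile normalization. Neither ratio of MAP2K7 passed its 95% limit.

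MAP2K4 (chromosome 17), also called MKK4, had signals of 1813, 1547 and 892 by probe 1 (A_32_P6344 to NM_003010) and 779, 727 and 362 by probe 2 (A_33_P3653330 to NM_001281435). The log2 ratios were 0.03 and 0.16 for cordyceps and 0.05 and −0.03 for sunitinib, within limits of 0.40, and the sign of each rested on the scaling. The probes differed by less than their error in both comparisons.

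The ratios of MAP2K7 and GADD45B can be set side by side, since both are bright and their difference is free of a constant scaling factor. The MAP2K7 ratio less the GADD45B ratio was −0.00327 log2 units for cordyceps, with a limit of 0.57, and for sunitinib it was −0.31, within a limit of 0.57. For cordyceps the difference lay between −0.03 and 0.04 under every scaling and correction tried. Neither difference passed its 95% limit. The MAP2K7 ratio less the MAP2K4 ratio was −0.15 for cordyceps and 0.30 for sunitinib, both within limits of 0.57.

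MAPK8, MAPK9 and MAPK10 encode JNK1, JNK2 and JNK3. MAPK8 (chromosome 10) had 3 dim probes that did not read alike. Probe 1 (A_24_P286898 to NM_001278547) had signals of 89.8, 19.0 and 43.2 and was not well above background on the cordyceps array, where it was at least 2.49-fold lower. With normexp its log2 ratio was −0.62, short of 2-fold. Probe 2 (A_33_P3250289 to NM_001278548) had signals of 76.3, 64.5 and 24.8, and probe 3 (A_23_P356152 to NM_001278547) of 58.2, 40.2 and 38.1. Their log2 ratios for cordyceps were 0.01 and −0.28, both within the error, so the call for MAPK8 on the cordyceps array came from 1 of its 3 probes.

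On the sunitinib array the log2 ratios of MAPK8 were 0.02, −0.55 and 0.46 by probes 1, 2 and 3, each within its limit and each with a sign that rested on the scaling or background correction. The ratio of probe 2 less that of probe 3 was −1.01, with a limit of 0.85. Among pairs of probes of 1 gene that were both measured on both arrays, it was the only difference to pass its limit. Bounds, such as that of probe 1 with cordyceps, were left out of these pairs. With normexp the sunitinib ratios of probes 2 and 3 were 0.05 and 0.37. Probes 2 and 3 are assigned to different RefSeq transcripts of MAPK8. Probes 1 and 3 are assigned to the same transcript, and with cordyceps their log2 ratios were a bound of −1.31 and −0.28. Whether the transcripts or the spots differed was not tested.

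MAPK9 (chromosome 5) had signals of 117, 132 and 79.3 by probe 1 (A_23_P167692 to NM_002752). Its log2 ratio was 0.42 for cordyceps, just within the limit of 0.44, and 0.51 for sunitinib, past the limit of 0.44, though neither reached 2-fold. The cordyceps ratio was the only one among the 15 probes with a ratio to stay positive in that comparison under every scaling and correction tried, from 0.17 to 0.64. The sunitinib ratio was −0.56 with unscaled signals. Probe 2 (A_33_P3400192 to NM_001135044) had signals of 28.7, 20.1 and 14.3, was well above background on the vehicle array only and gave no ratio.

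MAPK10 (chromosome 4), which is expressed mainly in neurons, had signals of 71.1, 39.2 and 39.1 by probe 1 (A_23_P45025 to NM_138980). The log2 ratio for cordyceps was −0.60, within its limit of 0.68, and negative under every scaling tried. For sunitinib it was 0.21, within its limit of 0.54, and −0.86 with unscaled signals. Probe 2 (A_33_P3254216) had signals of 5.74, 8.68 and 10.2, none well above background.

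Median scaling and unscaled signals add 1 constant to every ratio of a comparison. Of all probes called, 59.2% were higher for cordyceps and 58.7% for sunitinib. With median scaling these shares were 79.8% and 28.3%, with unscaled signals 32.1% and 3.10%, and with normexp 61.9% and 40.8%. Median scaling moved the median ratio of all probes by 0.12 for cordyceps and −0.24 for sunitinib, and unscaled signals moved it by −0.23 and −0.98. These shifts are smaller than the constants, since probes without a ratio stay at 0. Over probes measured on both arrays, the cordyceps median was 0.002, and 0.22 with median scaling and −0.25 unscaled. The sunitinib median was 0.05, and −0.28 and −1.02. Of the 15 probes with a ratio in each comparison, 5 were negative under every scaling and correction for cordyceps and 3 for sunitinib, and in both comparisons GADD45G probe 1 was among them.

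**Figure D3:**
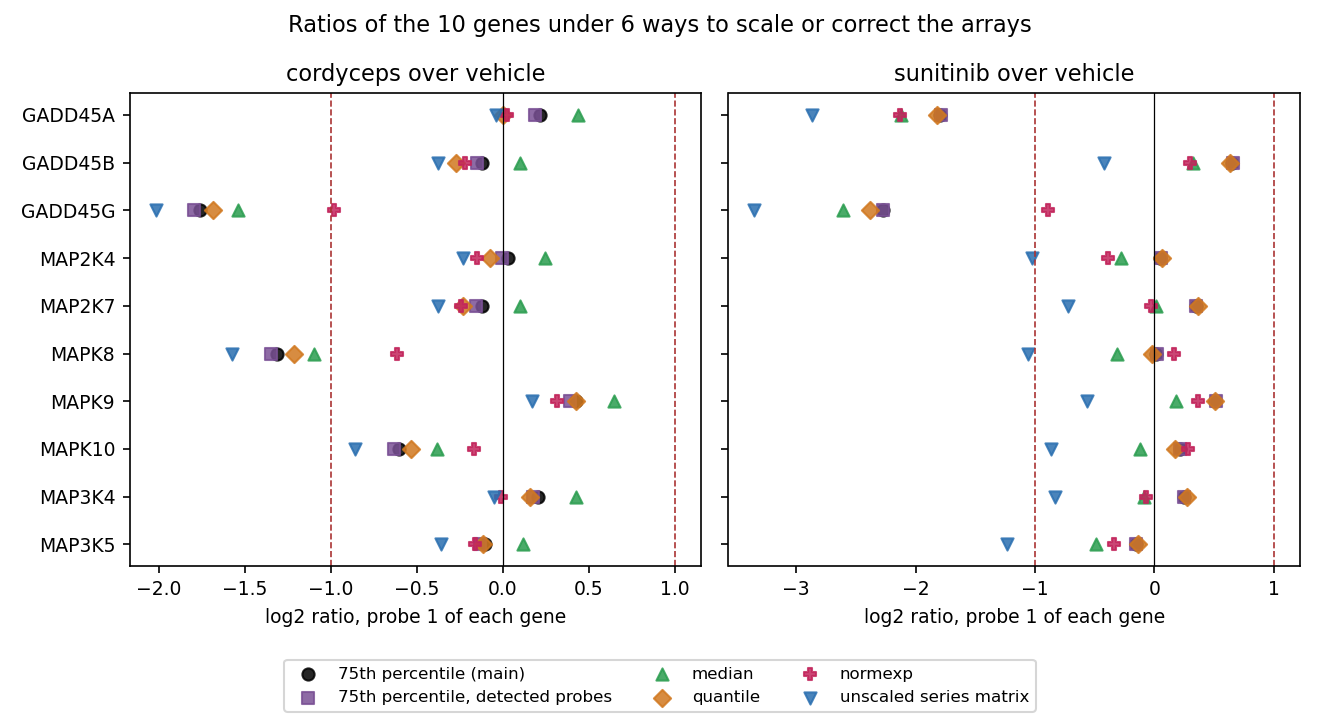
Log2 ratio of probe 1 of each of the 10 genes under the main and alternative scalings and normexp, for cordyceps (left) and sunitinib (right), with 2-fold as dashed lines; the cordyceps value of MAPK8 and the sunitinib value of GADD45G are bounds. GADD45A is at −1.79 or lower for sunitinib, while most other genes cross 0.

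The genes around these 10 were taken from 7 hand-written lists of 83 genes, each read by its brightest probe. That is the probe with the highest mean log2 signal over the 2 arrays compared. The choice therefore uses the treated array and can differ between comparisons. For cordyceps, 79 could be compared, 3 were higher and 1 lower, beside 2.97% of 14779 genes higher and 2.74% lower, and their median log2 ratio was −0.01 against 0 for all genes. For sunitinib, 78 could be compared, 4 were higher and 9 lower, beside 6.48% and 6.44% of 14901 genes, with a median of 0.03 against 0. With median scaling the counts were 8 higher and 0 lower for cordyceps and 2 and 13 for sunitinib. With unscaled signals they were 2 and 6, and 1 and 40.

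Of the 14 JNK substrates and partners in the AP-1 transcription factor that could be compared, 3 were higher and 4 lower with sunitinib, and 1 was higher and 1 lower with cordyceps. The shares over all genes were the 6.48% and 6.44% and the 2.97% and 2.74% given above, and 1 of 14 cannot be set apart from them. The list was written with earlier results of these data known. The counts of 3 and 4 are therefore no evidence of an excess over those shares. Their median log2 ratio was 0.04 with sunitinib and 0 with cordyceps. JUN, the substrate from which JNK takes its name, had signals of 1290, 2125 and 194 on the vehicle, cordyceps and sunitinib arrays. It was 3.15-fold lower with sunitinib. With cordyceps its log2 ratio was 0.98, with an error of 0.20, and short of 2-fold. FOSL1, the AP-1 subunit FRA1, had signals of 977, 2477 and 89.7, which was 3.03-fold higher with cordyceps and 5.18-fold lower with sunitinib. Both of these directions held under every scaling and correction tried.

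JUNB, another AP-1 subunit, was dim, with signals of 29.3, 21.7 and 40.7, and its log2 ratio for sunitinib was 1.55, or 0.48 with unscaled signals. BCL2L11, which encodes the BH3-only protein BIM, gave a log2 ratio of 2.11 for sunitinib, from signals of 289 on the vehicle and 595 on the sunitinib array, and its 3 probes ranged from 1.08 to 2.11. With unscaled signals the value was 1.04. BMF, a further BH3-only gene, was 2.07-fold lower with cordyceps, with signals of 592, 239 and 691, and its log2 ratio for sunitinib was 1.30, or 0.22 with unscaled signals. With median scaling the BMF value for cordyceps was −0.83 and no longer passed 2-fold.

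The other lists held 0 to 2 calls per direction, which cannot be set apart from the shares over all genes. Of the kinases upstream of MAP2K4 and MAP2K7, 20 were compared for cordyceps and 19 for sunitinib, and MINK1, a dim probe whose ratio is a bound, was the only one called by the brightest probe. A second probe of MAP3K9 was at 1.07 with cordyceps and another of MAP3K13 at −1.10 with sunitinib. MINK1 was at least 3.71-fold higher with cordyceps, or a log2 ratio of 0.76 with normexp, and is named here after its value was seen. Of 8 scaffolds, SH3RF1, also called POSH, was lower with sunitinib, with a log2 ratio of −1.04. Of 10 phosphatases compared, DUSP10, which removes phosphate from JNK and p38, was lower with sunitinib at −1.05, and −0.60 with normexp. Of 9 genes of the p38 arm, MAPK13, or p38 delta, was lower with sunitinib at −1.10, and its other probe gave −0.44. None of the 9 partners of MAP3K5 was called by its brightest probe in either comparison. Probes of CFLAR, which encodes c-FLIP, did not read alike: of 4 with a ratio, the brightest was at −0.02 with cordyceps and 0.26 with sunitinib and the lowest at −1.47 and −1.20. Of the genes not called by their brightest probe, FLNA also had a probe at 1.22 with sunitinib, and MAP2K3 had probes at 1.01 with cordyceps and −1.04 with sunitinib.

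Of 9 partners of GADD45 proteins in the cell cycle and DNA repair, CDK1 was higher with cordyceps at a log2 ratio of 1.14, from signals of 572 and 1051, and at 0.88 with unscaled signals. CDK1 drives entry into mitosis and is bound by GADD45A and its relatives. On the sunitinib array its signal of 18.7 was not well above background and at least 14.5-fold below the vehicle array. CCNB1, the cyclin B1 partner of CDK1, had a log2 ratio of −2.14 for sunitinib, with signals of 1212 and 130. TET1, a DNA demethylase, had a log2 ratio of 1.03 for sunitinib and −0.04 with unscaled signals. PCNA, the clamp of DNA replication, had signals of 2326, 2491 and 1147 on the vehicle, cordyceps and sunitinib arrays and ratios of 0.36 and 0.05. CDKN1A, or p21, had signals of 139, 220 and 132 and ratios of 0.92 and 1.00. Neither gene passed 2-fold. The plain signals of both were lower on the sunitinib array than on the vehicle array, so the direction of their sunitinib ratios rests on the scaling.

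**Figure D4:**
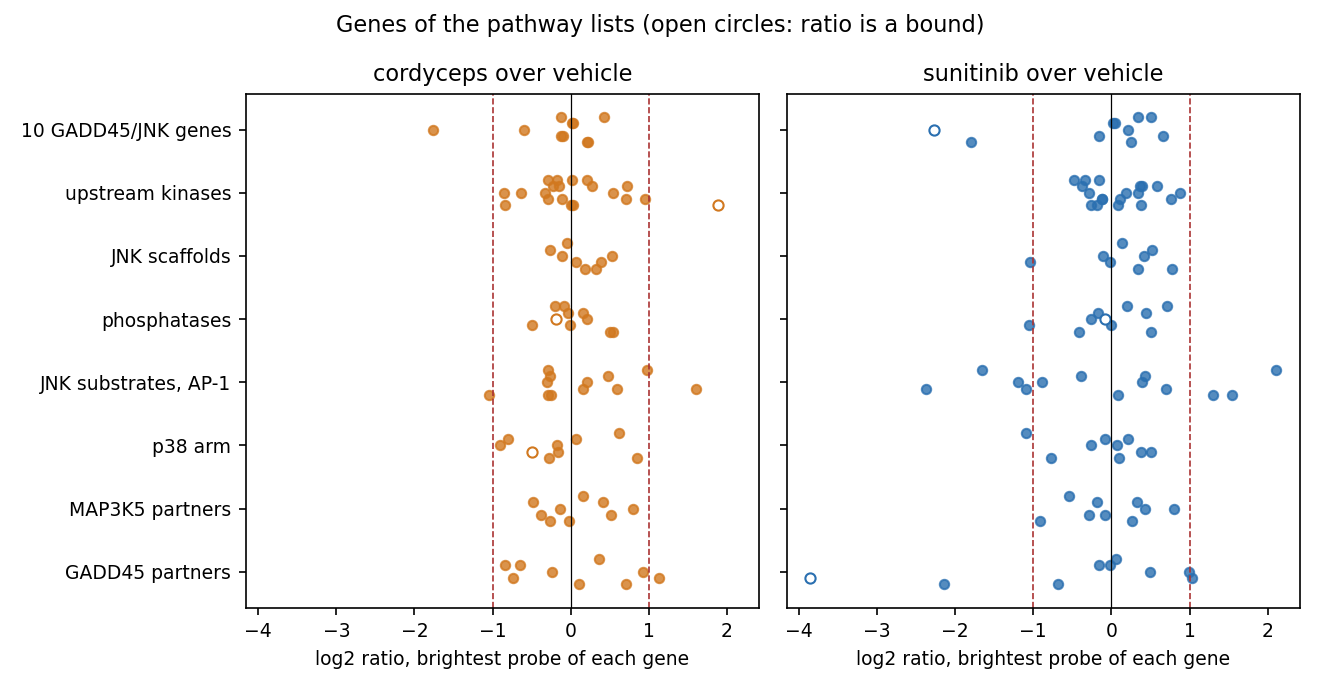
Log2 ratio of each gene of the 7 lists and of the 10 GADD45 and JNK genes by its brightest probe, for cordyceps (left) and sunitinib (right), with 2-fold as dashed lines and open circles where the ratio is a bound. The JNK substrates and AP-1 genes spread from −2.37 to 2.11 with sunitinib, while the upstream kinases lie between −0.48 and 0.88.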

How the data were processed

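Per the labels, total RNA was labelled with Cy3 and hybridised to single-colour Agilent arrays. The authors scanned the arrays and deposited, per array, the processed intensity and its error as written by Feature Extraction 11.5.1.1, after background subtraction. The header names build hg19. A deposited table of processed values equals the mean processed intensity of a probe to within 0.01% for 99.87% to 99.92% of probes and is not scaled. The paper's methods describe another array and a red over green ratio, from which only the 2-fold limit was taken.

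From the deposited intensity, control spots and outlier spots (30 probes) were left out and the signals were divided by the 75th percentile of the array and put on a log2 scale. The authors deposited no log2 values. Accessions were matched, without versions, to the RefSeq table of GRCh38.p14. Errors of 2 spots were added in quadrature, and 1.96 times the result is the 95% limit. Of each pathway list, at most 2 genes per direction and comparison are named, those with the largest ratio among genes called and well above background on both arrays. JUN with cordyceps, BMF with sunitinib, MINK1, CDK1 with sunitinib, PCNA, CDKN1A, MAP3K9, MAP3K13, CFLAR, FLNA and MAP2K3 fall outside that rule. They were chosen after their values were seen. The members and the lists were chosen with earlier results of these data known. The alternatives were other scalings (detected probes, median, quantile, none), limma's normexp with an offset of 50, other filters on dim and outlier spots, the streak left out, a 1.5-fold limit and other rules for several probes. The scripts ran under Python 3.11.15 with pandas 2.3.3 and under R 4.3.3 with limma 3.58.1, and were tested on simulated data.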

Additional observations from a re-analysis of the deposited data

How the results depend on the processing

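No paired analysis was possible because each condition had 1 array. For the same reason no replicate could be left out. The count of member probes lower with cordyceps, 2, became 0 with normexp, 1 when both arrays had to be well above background and 4 with a 1.5-fold limit. The count lower with sunitinib, 2, became 8 with unscaled signals, 1 with normexp and 1 when both arrays had to be well above background. The count higher with sunitinib, 0, became 1 without a filter on dim probes, by probe 2 of MAPK10, and 1 with a 1.5-fold limit, by GADD45B. The genes lower with cordyceps, 2, became 1 by the brightest probe and 1 by the mean of the probes, which drop MAPK8. The choice of the brightest probe includes the treated signal. MAPK8 probe 1 was the brightest on the vehicle array, and its own low cordyceps signal led to probe 2 being read. For cordyceps, 104 values of single probes under the alternatives stayed within the error limit of the main ratio and 1 did not. For sunitinib 89 did and 16 did not, 14 of them with unscaled signals and 2 with normexp. No called ratio of the 18 probes turned its sign, whereas TET1 in the pathway lists, at 1.03 for sunitinib, was at −0.04 with unscaled signals. The causes of these shifts were not tested. Signal over background limits GADD45G, MAPK8, MAPK9 and MAPK10, whose probes were dim.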
